A study of Mus musculus with 4 samples.

Results

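The genes described here encode proteins of the peroxisome in mouse brown adipocytes: peroxins, which build the organelle, and the transporters and enzymes that handle lipids inside it. The list of 35 genes was set by name, as genes with a peroxin, peroxisomal transporter or peroxisomal enzyme symbol. It was chosen with earlier results of these data known, and it does not hold every such gene. Its member Abcd4 carries cobalamin in the lysosome instead. Of the 35 genes, 33 were measured, among 17097 genes in all, and they fall into 12 biogenesis genes and 21 enzyme and transporter genes. Pex10 was not named by the array annotation used here, and Acot4 was named only on probe sets shared with Acot3, so neither has a value of its own below.

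Cells expressing a scrambled control short hairpin RNA (Scramble) were compared with cells expressing a short hairpin RNA against brown fat lncRNA 1 (shBlnc1). Blnc1 is a long noncoding RNA, and both groups were differentiated for 6 days. Each group had 2 arrays from biological replicates, and each array received material made from 250 ng of total RNA. The strain, the source of the cells and the hairpin sequences are not given in the sources used here, nor is whether replicates were separate cultures, so the tests measure only the spread between these samples. The array annotation names no Blnc1 probe set, so the level of the targeted RNA was not analysed here.

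Peroxisomes shorten very long chain and branched fatty acids, degrade the hydrogen peroxide made in doing so, and carry out the first steps of ether lipid synthesis. Peroxins insert membrane proteins, bring enzymes in from the cytosol through shuttling receptors that are recycled by an ATPase complex, and divide the organelle. Brown fat is rich in peroxisomes, and many peroxisomal enzyme genes are known targets of the nuclear receptor PPAR alpha. The comparison asks which of these transcripts differ when Blnc1 is targeted.

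Values are the deposited log2 expression values of the brightest probe set of each gene, so a difference of 1 is a doubling, and levels are compared between arrays and not between genes. A gene was called where limma's test gave an adjusted p below 0.05 over all genes. A group mean at or below 2.55, the highest reading of the antigenomic control probe sets with 3 to 24 G or C bases, counts as background.

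Peroxisomal transcripts went both ways and by modest amounts. Of the 33 measured genes, 6 read lower on the shBlnc1 arrays (Phyh, Pex6, Ehhadh, Pex19, Ech1 and Pecr), 4 were higher (Abcd2, Amacr, Abcd4 and Far1) and 23 were not called. In bulk samples fewer cells of a type and less RNA per cell cannot be told apart. The lower genes made up 18.2% of the measured ones, beside 7.18% of all genes called lower. The higher genes made up 12.1%, beside 11.4% of all genes called higher, and the calls in either direction made up 30.3% beside 18.5%. Without the dimmest 40 percent of genes, 12 biogenesis and 19 enzyme and transporter genes remained. Of these, 11 were called, beside 3311 of 10258 genes in all, so the shares lay closer together. None of the 33 genes reached a change of 1 log2 unit on its brightest probe set: the values ran from -0.82 (Phyh) to 0.86 (Abcd2). The median log2 fold change was 0.05, beside -0.04 over all genes tested. The balance depended on scaling, with 6 lower and 2 higher after quantile normalization and 4 lower and 5 higher after centring each array on its median. Phyh and Abcd2 were the 2 genes called with each array left out in turn, while the other 8 lost the call without shBlnc1 replicate 1 and without shBlnc1 replicate 2.

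**Figure D1:**
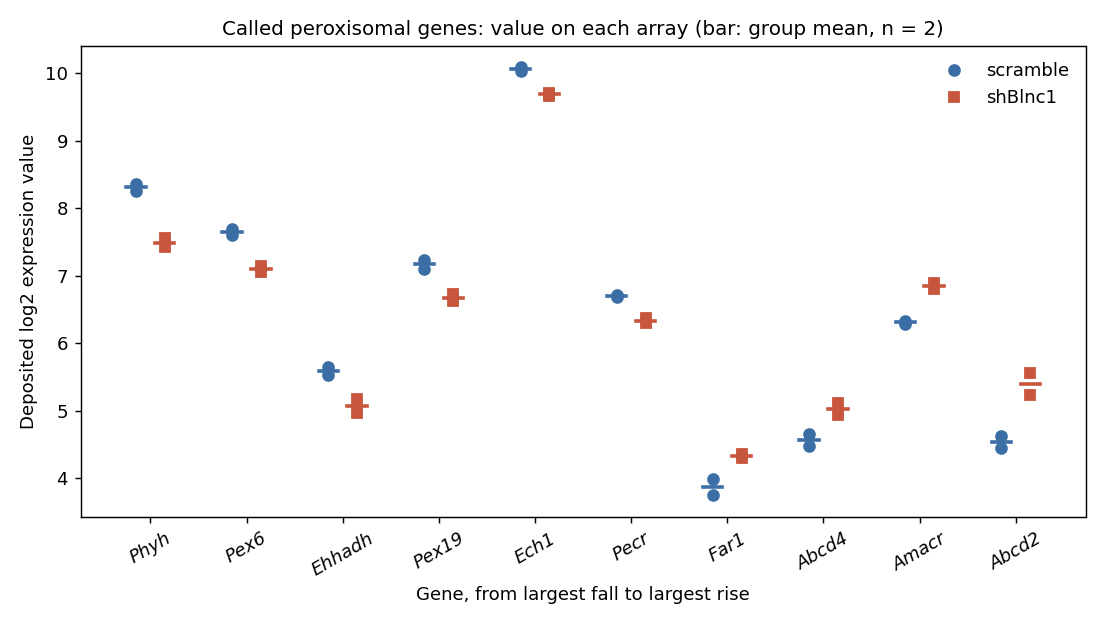
Deposited log2 expression value (y axis) of the 10 called genes (x axis) on each scramble array (circles) and each shBlnc1 array (squares), with bars at the group means, n = 2. In none of the 10 genes do the groups overlap, but the genes were picked by a test on these same arrays, so this adds no support. Without such a choice, the groups did not overlap for 34.3% of all genes (lower) and 28.3% (higher). The largest differences of means are those of Phyh, with means of 8.31 and 7.49, and Abcd2, with means of 4.54 and 5.40.

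Cell markers and RNA quality moved with the groups. Of 6 fat cell markers measured, 1 was lower (Plin4, log2 fold change -0.44). The others were Lipe at -0.33, Pparg at -0.17, Fabp4 at 0.02, Lpl at 0.06 and Adipoq at 0.07. Averaged over its 3 probe sets, Fabp4 was at -0.18. Of 7 brown fat markers 5 were lower, Ucp1 by 3.64-fold, and all 5 preadipocyte markers were higher. Of 6 macrophage markers 1 was higher (Adgre1), of 5 endothelial markers 1 was higher (Tek) and of 6 muscle markers 1 was lower (Myod1). Over all genes, 7.18% were called lower and 11.4% higher. Peroxisomal enzymes are abundant in liver, and hepatocyte transcripts were read: of 19 such markers 11 were lower and 1 was higher. The 11 include Serpina1a, at background in both groups, and Fga, Serpina1b and Serpina1c, at background in shBlnc1. The mean log2 value of the 19 markers was 4.11 and 3.99 on the scramble arrays and 3.26 and 3.01 on the shBlnc1 arrays. Alb read 6.28 and 5.70 in scramble and 4.43 and 2.50 (at background) in shBlnc1, while Fgb, Serpina1a, Serpina1d and Tat were at background in both groups. The 3′ to 5′ log2 ratio of Actb was 0.99 and 1.15 in scramble and 1.77 and 1.88 in shBlnc1. The part of these differences in the results on peroxisomal genes was not tested, whether for the genes that fell or for those that rose.

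The sequences just before the start sites of 3 of the lower genes are shown because these genes moved the same way and because their windows could be searched for the sites of known regulators. They are the 3 largest falls, on the brightest probe sets, among called genes with a single RefSeq window that lies outside the gene's own bounds. Each run covers the 250 bases before the start, 5′ to 3′ on the gene's strand, from RefSeq on build GRCm38.p6. Capitals mark matches to the Sp1 box GGGCGG or the CCAAT box CCAAT on either strand. The windows lie at chr2:4918746-4918995 (Phyh, plus strand), chr17:46711226-46711475 (Pex6, plus strand) and chr16:21787835-21788084 (Ehhadh, minus strand).
Phyh: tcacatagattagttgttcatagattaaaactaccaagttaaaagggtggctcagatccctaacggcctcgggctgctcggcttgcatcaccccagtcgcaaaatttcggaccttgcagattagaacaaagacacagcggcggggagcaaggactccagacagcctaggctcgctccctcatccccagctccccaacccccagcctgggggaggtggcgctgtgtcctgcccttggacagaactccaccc
Pex6: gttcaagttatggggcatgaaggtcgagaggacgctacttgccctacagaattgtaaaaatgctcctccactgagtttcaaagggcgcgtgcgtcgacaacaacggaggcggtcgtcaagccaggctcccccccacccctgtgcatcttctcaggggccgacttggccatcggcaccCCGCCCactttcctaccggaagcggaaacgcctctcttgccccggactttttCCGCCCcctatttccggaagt
Ehhadh: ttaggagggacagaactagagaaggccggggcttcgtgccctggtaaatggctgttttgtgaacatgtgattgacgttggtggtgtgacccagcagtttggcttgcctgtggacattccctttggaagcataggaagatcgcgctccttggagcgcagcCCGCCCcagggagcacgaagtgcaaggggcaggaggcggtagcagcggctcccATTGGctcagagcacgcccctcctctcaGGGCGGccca
The Pex6 window holds 2 Sp1 boxes, the Ehhadh window 2 Sp1 boxes and 1 CCAAT box, and the Phyh window none of these motifs.

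RefSeq windows were found for 27 of the 33 genes, 32 windows in all because some genes have several start sites. The Sp1 box was present in 20 of the 32 windows (62.5%), beside 32.7% of all 32851 windows. The CCAAT box was present in 14 (43.8%), beside 33.8%. The PPAR and RXR direct repeat, a pair of AGGTCA copies spaced by any 1 base and searched on both strands, was present in 0 of the 32 windows and in 0.0335% of all windows. A single AGGTCA was present in 3 windows (9.38%), those of Cat, Pex11g and Scp2, beside 14% of all windows. The ERR site TCAAGGTCA, which ends in the same letters, was present in 0 of the 32 beside 0.387%. These matches are letters in a short window and say nothing of whether a factor binds there. The direct repeat and the ERR site are so rare over all windows that their absence from 32 windows says little.

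Among the 12 biogenesis genes, limma called 2 lower and 0 higher and left 10 uncalled, with 1 of the 10, Pex16, at an unadjusted p of 0.0376. The 2 lower genes made up 16.7%, beside 7.18% of all genes called lower, and the median log2 fold change was -0.07. Pex6 encodes an ATPase that pulls the import receptor back out of the membrane (Entrez Gene 224824). It read 7.69 and 7.60 on the scramble arrays and 7.06 and 7.15 on the shBlnc1 arrays. That is a 1.45-fold lower value (log2 fold change -0.54, SE 0.10, adjusted p = 0.0145). Both shBlnc1 arrays lay below both scramble arrays, as they did for 34.3% of all genes. The adjusted p was 0.103 without shBlnc1 replicate 1 and 0.0723 without shBlnc1 replicate 2.

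The other probe sets of Pex6 gave larger falls. One read 6.62 and 6.65 in scramble and 5.59 and 5.58 in shBlnc1, 2.06-fold lower (adjusted p = 0.00153, limma over all 45037 probe sets). Another, of the type made for 1 transcript, was 2.01-fold lower (adjusted p = 0.00241). The brightest probe set is of a type that can pick up other transcripts, and its change was the smallest of the 3.

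Receptor recycling also involves Pex26, which anchors the ATPase complex to the membrane, and Pex2, a subunit of the ubiquitin ligase that marks the receptor. Neither was called. Pex26 had a log2 fold change of 0.16 (95% confidence interval -0.08 to 0.39) and Pex2 one of -0.11 (-0.42 to 0.19). The Pex2 arrays of the 2 groups overlapped.

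Of the 3 genes for membrane assembly, Pex19 was lower. Its product is the cytosolic chaperone that delivers membrane proteins to the peroxisome (Entrez Gene 19298). It read 7.24 and 7.10 on the scramble arrays and 6.72 and 6.63 on the shBlnc1 arrays. The value was 1.41-fold lower (log2 fold change -0.49, SE 0.11, adjusted p = 0.0225), and the groups did not overlap. The adjusted p rose to 0.0615 without scramble replicate 1, 0.0882 without shBlnc1 replicate 1 and 0.149 without shBlnc1 replicate 2. A dimmer Pex19 probe set was 1.70-fold lower (adjusted p = 0.0093), and the dimmest was not called, at -0.16.

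The docking partners of Pex19 were not called in the same cells. Pex3, its receptor in the membrane, had a log2 fold change of 0.23 (adjusted p = 0.166), and a dimmer Pex3 probe set one of -0.34 (adjusted p = 0.0834), so the probe sets of Pex3 were opposite in sign and neither was called. Pex16, which brings Pex3 to the membrane, read 6.68 and 6.55 in scramble and 6.82 and 6.98 in shBlnc1 (log2 fold change 0.29, adjusted p = 0.124). Its arrays did not overlap, but the gene was not called. The other Pex16 probe sets were at background in both groups, with log2 fold changes of -0.23 and -0.09. Whether the change of Pex19 differs from those of Pex3 and Pex16 was not tested.

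The import machinery was not called. None of Pex5 and Pex7, the receptors for the 2 kinds of targeting signal, or Pex13 and Pex14, which form the docking site, was called by limma, and none had an unadjusted p under 0.05. Their log2 fold changes ran from -0.13 (Pex5) to 0.02 (Pex14). The 95% confidence interval was -0.37 to 0.11 for Pex5 and -0.23 to 0.28 for Pex14. In eBayes with a trend, these 4 genes were not called either.

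Neither division gene was called on its brightest probe set. Pex11a, the form that PPAR alpha induces, had a log2 fold change of 0.09 (95% confidence interval -0.18 to 0.36), and its second probe set gave 0.20. Pex11g was not called on its brightest probe set (-0.25, adjusted p = 0.191). A dimmer Pex11g probe set was 1.35-fold lower (adjusted p = 0.0386) and the dimmest had a log2 fold change of 0.42 (adjusted p = 0.0644). No direction can be given for Pex11g from these readings.

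**Figure D2:**
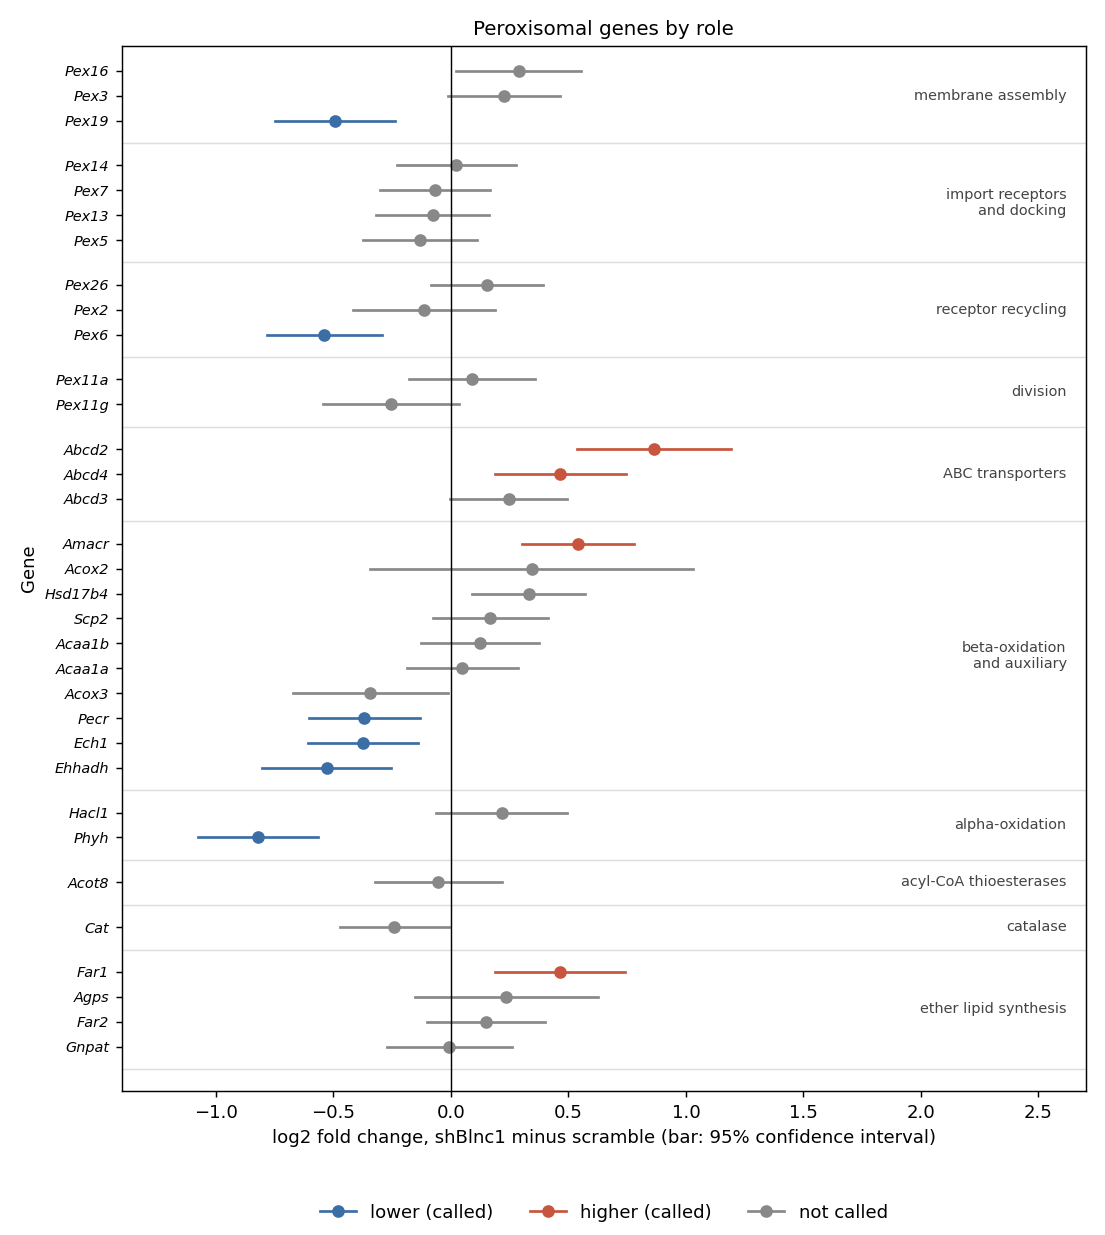
Log2 fold change of shBlnc1 against scramble (x axis, points) with 95% confidence intervals from limma (bars) for the 33 measured genes (y axis), grouped by role. Blue marks the 6 called lower, red the 4 called higher and grey the 23 not called. The 3 ABC transporters lie to the right of 0, and the 10 beta-oxidation genes spread from -0.53 to 0.54.

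The ABC transporters carry fatty acyl-CoA into the peroxisome or, for Abcd4, cobalamin in the lysosome. They were the role with the highest median log2 fold change, 0.46, which with 3 genes is the value of Abcd4 itself. Of the 3 genes, 2 were called higher, beside 11.4% of all genes. All 3 had both shBlnc1 arrays above both scramble arrays, an arrangement shown by 28.3% of all genes. Abcd2 imports very long chain and unsaturated fatty acyl-CoA (Entrez Gene 26874). It read 4.45 and 4.62 in scramble and 5.56 and 5.24 in shBlnc1. The value was 1.82-fold higher (log2 fold change 0.86, SE 0.14, adjusted p = 0.00761), and with each array left out the adjusted p stayed between 0.0119 and 0.0462.

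The probe sets of Abcd2 agreed in sign but not in size. A dimmer one read 3.48 and 3.26 in scramble and 5.80 and 5.88 in shBlnc1, 5.53-fold higher (adjusted p = 0.000342 over all probe sets). It is the largest change of any probe set of the 33 genes. Another was not called, at 0.32 (adjusted p = 0.11), and the last was at background in both groups. The amount by which Abcd2 rose is therefore inexact.

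Abcd4 read 4.65 and 4.47 in scramble and 4.94 and 5.11 in shBlnc1, a 1.38-fold higher value (log2 fold change 0.46, SE 0.12, adjusted p = 0.0359). A dimmer probe set of Abcd4, of the type made for 1 transcript, had a log2 fold change of -0.20 (adjusted p = 0.319), opposite in sign. The adjusted p of Abcd4 was 0.0784 after quantile normalization and 0.298 with the mean of its probe sets (log2 fold change 0.13). It was 0.0947, 0.0911 and 0.217 without scramble replicate 2, shBlnc1 replicate 1 and shBlnc1 replicate 2. Abcd3, the most general of the peroxisomal transporters, read 8.71 and 8.58 in scramble and 8.93 and 8.86 in shBlnc1, and was not called (log2 fold change 0.25, adjusted p = 0.153), although eBayes with a trend called it higher (adjusted p = 0.0143).

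Of the 10 genes for beta-oxidation and its auxiliary steps, 3 were called lower, 1 was called higher and 6 did not pass. Over all genes, 7.18% were called lower and 11.4% higher. Ehhadh encodes the bifunctional enzyme that hydrates and dehydrogenates straight-chain substrates (Entrez Gene 74147). It read 5.54 and 5.65 in scramble and 5.17 and 4.96 in shBlnc1. The value was 1.44-fold lower (log2 fold change -0.53, SE 0.12, adjusted p = 0.0232) with no overlap. The adjusted p was 0.0593 without scramble replicate 2, and 0.0557 and 0.158 without shBlnc1 replicates 1 and 2.

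Hsd17b4, the second bifunctional enzyme, which takes branched-chain and very long chain substrates, had a difference of opposite sign. It read 8.15 and 8.13 in scramble and 8.53 and 8.42 in shBlnc1, without overlap. Its log2 fold change was 0.33 (SE 0.10), and its adjusted p of 0.0655 missed the threshold. It passed under 4 alternatives, with adjusted p-values of 0.0371 after median centring, 0.0455 without the dimmest 40 percent of genes, 0.00303 in eBayes with a trend and 0.043 when a gene's probe sets were averaged, and reached 0.31 without shBlnc1 replicate 1. The difference between the changes of Ehhadh and Hsd17b4 was not tested.

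The other lower genes of this group act on unsaturated chains. Ech1, an isomerase of dienoyl-CoA that is also found in mitochondria (Entrez Gene 51798), read 10.1 and 10.0 in scramble and 9.67 and 9.70 in shBlnc1, 1.30-fold lower (adjusted p = 0.0413). Pecr, a trans-enoyl-CoA reductase (Entrez Gene 111175), read 6.72 and 6.69 in scramble and 6.37 and 6.31 in shBlnc1, 1.29-fold lower (adjusted p = 0.0441). Both changes are small, and both calls rest close to the threshold. Ech1 and Pecr lost the call after centring each array on its median and without any one array, where the adjusted p ran from 0.0619 to 0.2 for Ech1 and from 0.0719 to 0.239 for Pecr. Pecr also lost it with the mean of its probe sets, the second of which was at background.

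Amacr was the higher gene of the group. It encodes the racemase that turns branched-chain acyl-CoA into the form that beta-oxidation accepts (Entrez Gene 17117), and it read 6.28 and 6.33 in scramble and 6.80 and 6.89 in shBlnc1. The value was 1.45-fold higher (log2 fold change 0.54, SE 0.10, adjusted p = 0.0135) with no overlap. The adjusted p was 0.0641 and 0.107 without shBlnc1 replicates 1 and 2.

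The thiolase genes, which make the last cut of the cycle, were not called. Acaa1a had a log2 fold change of 0.05 (95% confidence interval -0.19 to 0.28) and Acaa1b one of 0.12 (-0.13 to 0.37). These are close paralogs, and all 4 probe sets of Acaa1a are of types that can detect more than 1 transcript, so their readings may be shared. Scp2, which encodes a sterol carrier protein and a branched-chain thiolase, had a log2 fold change of 0.17 (adjusted p = 0.299), and eBayes with a trend called it higher (adjusted p = 0.0255).

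The acyl-CoA oxidases, the entry enzymes of the cycle, rested on uneven arrays. Acox2 read 3.19 and 4.20 on the 2 scramble arrays and 4.02 and 4.06 on the shBlnc1 arrays, so the scramble replicates differed by more than the groups did. Without scramble replicate 2 it was called higher (log2 fold change 0.85, adjusted p = 0.0062), and without scramble replicate 1 its log2 fold change was -0.16 (adjusted p = 0.385). Acox3 read 3.37 and 3.01 in scramble and 2.80 and 2.90 in shBlnc1 (adjusted p = 0.137). It was called lower without scramble replicate 2 (adjusted p = 0.0332).

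Alpha-oxidation removes 1 carbon from phytanic acid and other branched chains, and its first enzyme, phytanoyl-CoA hydroxylase, is encoded by Phyh (Entrez Gene 16922). Phyh showed the largest fall of the 33 genes on their brightest probe sets, while Pex6 fell further with the probe sets of a gene averaged (-0.86 against -0.82 for Phyh, log2) and on probe sets made for 1 transcript (-1.01 against -0.82). Phyh read 8.36 and 8.26 in scramble and 7.42 and 7.56 in shBlnc1. The value was 1.77-fold lower (log2 fold change -0.82, SE 0.11, adjusted p = 0.00373). With each array left out in turn, the log2 fold change lay between -0.89 and -0.75 and the adjusted p between 0.00733 and 0.0331. Hacl1, the lyase of the next step, read 6.11 and 6.30 in scramble and 6.34 and 6.49 in shBlnc1 and was not called (log2 fold change 0.22, adjusted p = 0.243).

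Of the 4 genes of ether lipid synthesis, limma called Far1, which encodes the reductase that supplies fatty alcohol for plasmalogens (Entrez Gene 67420). It read 3.98 and 3.75 in scramble and 4.30 and 4.36 in shBlnc1. The value was 1.38-fold higher (log2 fold change 0.46, SE 0.12, adjusted p = 0.0362), but the adjusted p was 0.0606 after quantile normalization, and 0.0946, 0.13 and 0.186 without scramble replicate 2, shBlnc1 replicate 1 and shBlnc1 replicate 2. Gnpat, the acyltransferase that starts the pathway, had a log2 fold change of -0.01 (95% confidence interval -0.27 to 0.26). Agps, which puts the alcohol in place of the acyl chain, was not called (0.23, adjusted p = 0.363), and a dimmer probe set of Agps gave -0.31. Far2 was at background in both groups, with means of 2.30 and 2.45.

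Cat encodes catalase, which breaks down the hydrogen peroxide that the oxidases make. Its brightest probe set read 10.3 on both scramble arrays and 10.1 and 10.0 in shBlnc1, a log2 fold change of -0.24 (adjusted p = 0.137), and its second probe set gave -0.25. Both probe sets read lower on the shBlnc1 arrays, and neither was called. With eBayes with a trend Cat was called lower at the same log2 fold change (adjusted p = 0.00115). Acot8, a thioesterase that releases fatty acids from CoA, had a log2 fold change of -0.05 (95% confidence interval -0.32 to 0.22).

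Biogenesis and enzyme genes can be set side by side. Of the 12 biogenesis genes 2 were called (16.7%), near the 18.5% of all genes called. Of the 21 enzyme and transporter genes 8 were called (38.1%), with 4 in each direction, beside 7.18% of all genes called lower and 11.4% called higher. The median log2 fold change was -0.07 for biogenesis and 0.15 for enzymes and transporters, or -0.15 and 0.06 after quantile normalization and -0.01 and 0.21 after median centring. The mean log2 value over the 12 biogenesis genes was 6.75 for each scramble replicate and 6.67 and 6.68 for the shBlnc1 ones. Over the 21 enzyme and transporter genes it was 6.45 and 6.46 in scramble and 6.53 on both shBlnc1 arrays. In both sets the array means of the groups did not overlap. Nor did the medians over all probe sets, 2.98 on each scramble array and 2.92 and 2.91 on the shBlnc1 arrays. With 2 arrays against 2, an exact permutation test of such a separation cannot go below 0.333. The difference between the sets is described here without a test. Groups did not overlap for 12 genes with lower shBlnc1 values (36.4%, beside 34.3% of all genes) and 13 with higher ones (39.4%, beside 28.3%).

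**Figure D3:**
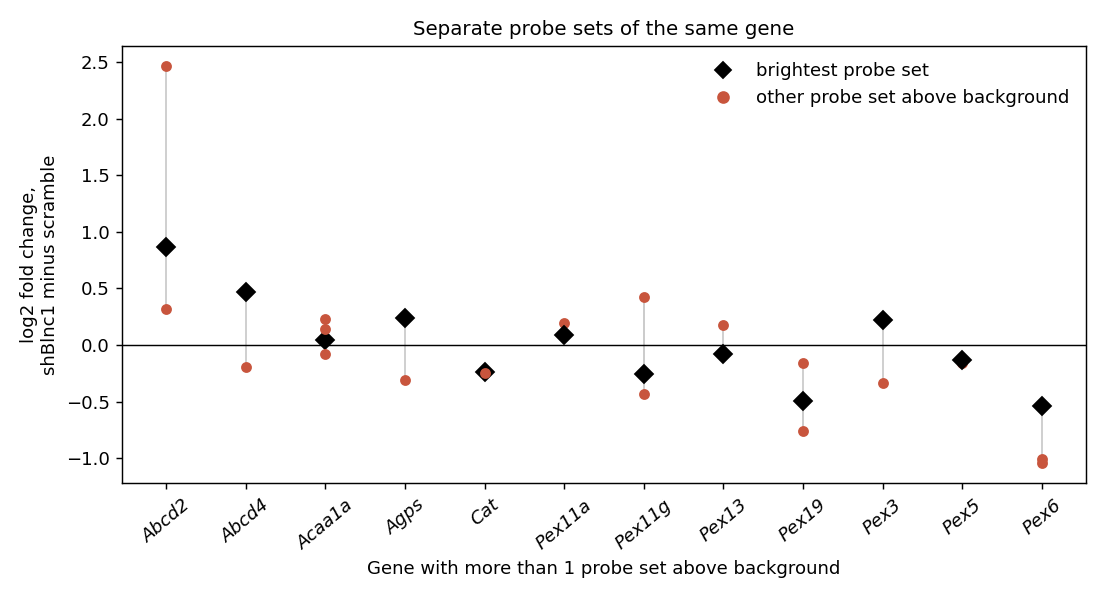
Log2 fold change of shBlnc1 against scramble (y axis) for each probe set above background of the 12 genes that have more than 1 (x axis). Diamonds mark the brightest probe set, which represents the gene, and circles the others. All Pex6 and Pex19 probe sets lie below 0, all Abcd2 probe sets above 0, and the probe sets of 6 genes fall on both sides.

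Of the 12 genes with more than 1 probe set above background, 6 had probe sets of opposite sign: Abcd4, Acaa1a, Agps, Pex11g, Pex13 and Pex3. Among the called genes, Pex6, Pex19 and Abcd2 kept their sign in every such probe set. Phyh, Ehhadh, Ech1, Amacr and Far1 have a single probe set, so no second reading bears on them.

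The level of the receptor that induces many of these enzymes was itself lower. Ppara, which encodes PPAR alpha, read 6.22 and 6.18 in scramble and 4.41 and 4.28 in shBlnc1, 3.61-fold lower (log2 fold change -1.85, adjusted p = 0.000328). Averaged over its 3 probe sets, Ppara differed by -1.04 on the log2 scale. Pparg was not called (log2 fold change -0.17, adjusted p = 0.28). A set of 9 measured genes widely known as PPAR alpha targets was named after the values had been seen. Of these 9, 2 were lower (Ehhadh and Ech1), 1 was higher (Abcd2) and 6 were not called (Acaa1a, Acaa1b, Hsd17b4, Cat, Pex11a and Abcd3). Their median log2 fold change was 0.09, within a range of -0.53 to 0.86. These counts depend on which genes the set holds. Of the called genes outside it, Phyh, Pex6, Pex19 and Pecr were lower and Amacr, Abcd4 and Far1 were higher. Over all genes, 7.18% were called lower and 11.4% higher. Whether the change of Ppara bears on these genes was not tested.

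Other genes with peroxisomal products were taken from a list of 73, of which 59 were measured. Of these, 5 were called lower, 6 were called higher and 48 did not pass, so 18.6% were called beside 18.5% of all genes. The median log2 fold change was -0.07. After quantile normalization 8 were lower and 4 higher. Sod1, a mainly cytosolic superoxide dismutase, was 1.60-fold lower (adjusted p = 0.00528). The other lower genes were Nudt7, a CoA hydrolase (-0.51), Acot3, a thioesterase (-0.46), Gstk1, a glutathione transferase (-0.46), and Uox, the urate oxidase gene. Uox read 2.61 and 2.66 in scramble and 2.29 and 2.27, at background, in shBlnc1 (adjusted p = 0.0486). Its call was lost after quantile normalization (adjusted p = 0.0949), median centring (0.0878) and eBayes with a trend (0.0668), on probe sets made for 1 transcript (0.0511), with the replicate block (0.0646) and with any 1 array left out (0.0742 to 0.229).

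The higher genes included lipid enzymes that act partly or mainly outside the peroxisome. Idi1, of the isoprenoid pathway, read 6.68 and 6.66 in scramble and 7.77 and 7.83 in shBlnc1, 2.19-fold higher (adjusted p = 0.000979). Fads1, a desaturase gene, was 1.70-fold higher (adjusted p = 0.00398). Acbd4, an acyl-CoA binding protein gene, was higher by 0.64 on the log2 scale and Decr2, the peroxisomal dienoyl-CoA reductase gene, by 0.60. Lonp2, the peroxisomal protease gene, had a log2 fold change of 0.51 and Tmem135 one of 0.45. Sod1, Idi1 and Fads1 were the 3 that stayed called with each array left out: without either shBlnc1 array 1 gene was lower and 2 were higher. Without scramble replicate 1 there were 3 lower and 6 higher, and without scramble replicate 2 there were 2 lower and 4 higher. Nudt7 lost the call on probe sets made for 1 transcript (log2 fold change -0.18, adjusted p = 0.251), and Lonp2 with the mean of its probe sets (0.28, adjusted p = 0.0694). After quantile normalization Acbd4 (adjusted p = 0.0652) and Tmem135 (0.0549) lost theirs.

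**Figure D4:**
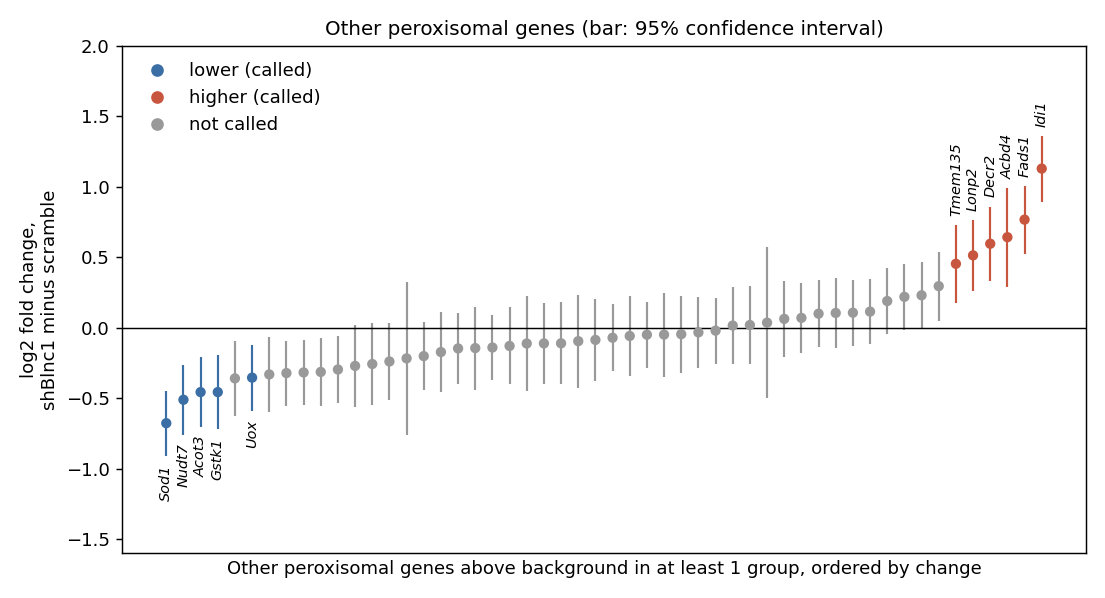
Log2 fold change of shBlnc1 against scramble (y axis, points) with 95% confidence intervals (bars) for the other peroxisomal genes above background in at least 1 group, ordered by change (x axis). The 5 genes called lower are blue and the 6 called higher are red, from Sod1 at -0.68 to Idi1 at 1.13.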

How the data were processed

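RNA was extracted with Trizol, per the labels' protocols, and biotin-labelled with a 3′ in vitro transcription kit, which copies from the poly(A) tail, and broken RNA lowers the reading of probe sets far from that end. The deposited values are log2 expression values, 1 per probe set and array, and run from 1.05 to 12.36. Per the submitters' processing notes, the authors used affy, RMA and limma, with no version or role stated, and the sources used here do not give the normalization of the deposited values. Scanner output was not used here.

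The table holds 45141 probe sets, of which 104 controls were left out of the tests. By the platform annotation, 28898 carry a single gene symbol, 551 several symbols and 15588 no symbol. The brightest probe set by the mean of the 4 arrays represented each of 17097 genes. Tests used R 4.3.3 and limma 3.58.1 (lmFit, then eBayes, for all 45037 probe sets with group as the term, two-sided). Benjamini-Hochberg adjustment ran over all genes, with calls at 0.05. There were 2 residual and 4.93 prior degrees of freedom, and the median standard error was 0.11. The number of arrays limits the precision. An exact permutation test of 2 against 2 arrays cannot go below 0.333, so none was run. The fit was tested on simulated data with independent normal errors and few changed genes. Such data hold no shift of RNA quality or cell markers with the group, so that test does not bear on those.

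The genes, lists, tests and alternatives were chosen with earlier results of these data known. Called genes are described with every array's value, genes with an adjusted p from 0.05 to 0.10 are named, and others are given as examples of their role. Among the other peroxisomal genes the rule takes the 8 largest called changes. Gstk1, Uox and Tmem135 fall outside it and were named after their values were seen. Plots used matplotlib 3.10.9.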

Additional observations from a re-analysis of the deposited data

How the results depend on the processing

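With each array left out in turn, called biogenesis genes numbered 0 to 2 lower and 0 higher, called enzyme and transporter genes 1 to 2 lower and 1 to 4 higher, and other peroxisomal genes 1 to 3 lower and 2 to 6 higher. Where 1 array of a group was left, its spread was taken from the other group. The number of calls over all genes fell as well, to 1232 without shBlnc1 replicate 1 and 1050 without shBlnc1 replicate 2, in place of 3169. Over these fits the median log2 fold change ran from -0.072 to -0.026 for biogenesis and from 0.084 to 0.13 for enzymes and transporters.

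After quantile normalization 2 enzyme and transporter genes were higher, 8 other peroxisomal genes were lower, and the medians were -0.15 (biogenesis) and 0.063 (enzymes and transporters). After centring each array on its median, 2 enzyme and transporter genes were lower and the medians were -0.0086 and 0.21. In eBayes with a trend 1 biogenesis gene (Pex16) and 7 enzyme and transporter genes were higher (Abcd3, Hsd17b4 and Scp2 besides Abcd2, Amacr, Abcd4 and Far1), Cat was called lower, and 8 other peroxisomal genes were lower, with 4370 calls over all genes. With a gene's probe sets averaged, 8 other peroxisomal genes were lower and the enzyme median was 0.085. On probe sets made for 1 transcript, 2 enzyme and transporter genes were higher, 2 other peroxisomal genes were lower, and the medians were -0.10 and 0.058. Abcd4 changed sign there, to -0.20. Pex16 did as well, to -0.23, with both group means at background. Fewer genes have a probe set made for 1 transcript (15261). The cause of the other shifts was not tested.

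Arrays with the same replicate number did not deviate together from their group means (r = 0.04 across probe sets). That shows no large shared deviation, but cannot tell whether samples of the same number were prepared together. With the replicate number as a block, 2 enzyme and transporter genes were lower in place of 4, without Ech1 and Pecr, 4 other peroxisomal genes were lower in place of 5, without Uox (adjusted p = 0.0646), and 3179 genes were called in all. Leaving out the dimmest 40 percent of genes changed no count by over 1.5 times. In that setting 4 of 19 enzyme and transporter genes were lower and 5 higher, with 3311 of 10258 genes called in all.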

Other observations

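Probe sets that the annotation pairs with more than 1 symbol bear on 2 of the genes without being assigned to them. A probe set shared by Acot4 and Acot3 had mean log2 values of 2.94 in scramble and 2.43, at background, in shBlnc1 (adjusted p = 0.0533 over all probe sets), and a second shared one was at background in both groups. The probe set named for Acot3 alone read 3.39 and 3.50 in scramble and 3.03 and 2.95 in shBlnc1 and was called lower (adjusted p = 0.0255, limma). These closely related genes can share signal on such probe sets, so the readings cannot be divided between them. A probe set shared by Pus10 and Pex13 had means of 6.05 and 6.38 (adjusted p = 0.116), while the Pex13 probe sets gave log2 fold changes of -0.08 and 0.17.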
